A study of Homo sapiens with 6 samples.

Results

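The collagen chain genes are the genes whose symbol is COL, a type number, A and a chain number, so that COL1A1 is the α1 chain of type I collagen. They were taken by symbol alone, with no cut on expression values, although earlier results of these data were known when they were chosen. All 44 such genes had a row in the tables, out of 60671 genes in all, and 26 of the 44 passed the filter on low counts and were tested. The cells were KGN, a human line grown from a granulosa cell tumour and labelled as granulosa, edited by CRISPR to hold 2 wild-type copies of FOXL2 (genotype FOXL2 WT/WT in every library). They received either 30 pmol of siRNAs against FOXL2 (siFOXL2) or the same amount of a control siRNA scramble, and RNA was taken after 30 h. There were 3 libraries per condition. The 3 FOXL2 siRNA pools differed, since each held 3 of 4 siRNAs and only 1 siRNA was in all pools. The labels do not state that the libraries came from separate cultures, so the p-values below measure the spread between these libraries, which may be partly technical.

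Collagens are proteins of the extracellular matrix in which 3 chains wind into a triple helix. The helix needs glycine as 1 of every 3 residues of a chain, because no other side chain is small enough for its centre. Fibrillar collagens (types I, II, III, V, XI, XXIV and XXVII) form the fibrils of connective tissue, and types III and V assemble together with type I. Type IV builds the network of basement membranes, type VI forms beaded filaments, and the FACIT chains sit on the surface of fibrils. Transmembrane and multiplexin chains stay at the cell surface or in basement membrane zones. In the ovary, granulosa cells lie on the follicular basement membrane, of which type IV collagen is a main part, whereas types I and III belong mostly to the stroma and theca. FOXL2 is a forkhead transcription factor of granulosa cells, and the study asked whether it also binds single-stranded nucleic acids, among them RNA with many pairs of G.

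Glycine is encoded by GGN, so the helix of each chain is written in the mRNA as a pair of G in 1 of every 3 codons, with 9 bases from one pair to the next and 7 bases between pairs. The stretches below open the longest unbroken run of such codons in 5 of the most abundant chains and are shown because this spacing of G pairs is the feature that all chains share. They come from GENCODE v29 transcripts, are 54 bases long, and have the GG of each glycine codon at the first place of every repeat in capitals.
COL1A1: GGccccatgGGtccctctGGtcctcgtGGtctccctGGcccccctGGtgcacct
COL1A2: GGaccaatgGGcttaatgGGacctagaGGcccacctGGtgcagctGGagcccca
COL3A1: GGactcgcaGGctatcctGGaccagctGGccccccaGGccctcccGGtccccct
COL4A1: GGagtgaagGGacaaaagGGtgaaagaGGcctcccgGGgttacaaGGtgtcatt
COL4A2: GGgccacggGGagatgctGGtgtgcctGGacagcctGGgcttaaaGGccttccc
Proline codons (CCN) filled 35.6% of the places between glycines in the runs of COL1A1, 35.4% in COL3A1, 33.8% in COL4A1 and 26.4% in COL6A1. Codons of charged residues filled 24.2%, 23.0% and 23.3% of them in COL1A1, COL3A1 and COL4A1, and 40.5% in COL6A1.

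The unbroken runs of the fibrillar genes were longer than those of all other chain genes, which had 23 to 113 glycine codons. In 9 of the 11 fibrillar genes it was 337 to 343 glycine codons, with 338 in COL1A1, 339 in COL1A2 and 343 in COL3A1, and it was 216 in COL24A1 and 217 in COL27A1. The 6 type IV chains had more glycine codons in all (429 to 449 in runs of at least 5) but no unbroken run longer than 66, in COL4A2. COL6A1 and COL6A2 had runs of 87 and COL6A3 a run of 45. The choice of glycine codon also differed. GGT made up 49.01% of the glycine codons in the runs of COL1A1 and 52.8% in those of COL1A2, against 21.6% in COL4A1 and 9.09% in COL6A1. In COL4A1 the most frequent codon was GGA, at 36.9%. The codon GGG was at its lowest in COL1A1 (2.82%), COL1A2 (4.80%) and COL2A1 (6.85%).

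**Figure D1:**
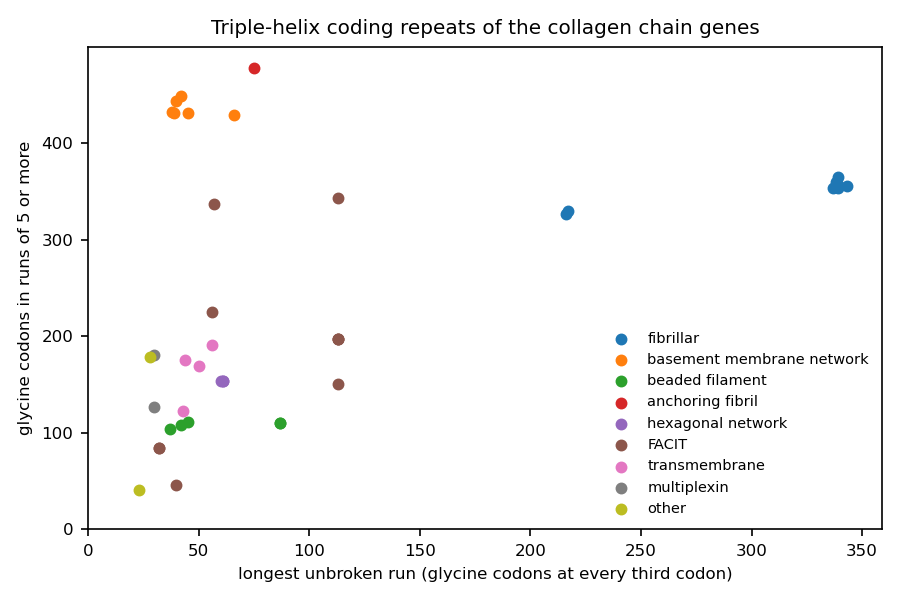
The plot gives, for each of the 44 chain genes (points, coloured by class), the longest unbroken run of glycine codons spaced 3 codons apart (x axis) and the number of glycine codons in runs of at least 5 (y axis). Fibrillar genes lie at 216 to 343 on the x axis, and the type IV genes lie at 38 to 66 although they hold 429 to 449 codons in runs.

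The libraries held 23843192 to 28791954 expected counts, and 23533 to 24675 genes per library had a count above 0. A limit of 3 counts corresponded to 0.104 to 0.126 CPM (a count scaled to library size) per library, for counting error only. FOXL2 itself fell to 23.3 to 32.6% of the control mean (-1.88 ± 0.142 SE on the log2 scale, adjusted p = 0.00267 in the quasi-likelihood test of edgeR). The first principal component, with 31.2% of the variance, set FOXL2 siRNA replicate 2 apart from the other 5 libraries. Of 11 granulosa markers, 5 had a mean of at least 1 TPM in the control libraries (FOXL2, NR5A1, FST, AMH and INHBA). FSHR and WT1 were at 0 counts in all libraries, and GATA4, AMHR2, CYP19A1 and INHA were close to 0. Of 7 fibroblast and stroma markers, 5 were at 1 TPM or more, among them THY1, PDGFRB and FAP. Of 3 theca markers, LHCGR and INSL3 were at 0 throughout and CYP17A1 was near 0.

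Levels of different chains were compared as TPM, a level scaled to transcript length and library size. KGN cells expressed 23 of the 44 chains at a mean of at least 1 TPM with the control siRNA. Of these, 9 were at 100 TPM or more, 8 lay from 10 to under 100 TPM and 6 from 1 to under 10 TPM. The 44 genes together made up 1.10% ± 0.0516 (SD, n = 3) of all TPM with the control siRNA and 1.05% ± 0.0734 (SD, n = 3) with FOXL2 siRNA, and the libraries of the conditions overlapped. In bulk RNA, fewer cells that make collagen and less collagen RNA per cell cannot be told apart.

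COL1A1 (ENSG00000108821, chromosome 17, 50183289 to 50201632, minus strand, GRCh38) was the most abundant chain. It had 5131, 5429 and 4816 TPM in control siRNA replicates 1 to 3 and ranked 18 among all genes. COL1A2 (ENSG00000164692, chromosome 7, 94394561 to 94431232, plus strand) had 2549, 2630 and 2387 TPM and ranked 42. These chains of type I collagen made up 69.8% ± 0.620 (SD, n = 3) of the collagen TPM with the control siRNA and 69.5% ± 1.52 (SD, n = 3) with FOXL2 siRNA.

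The filament chains COL6A2 and COL6A1 followed with 830 ± 5.03 and 669 ± 17.5 TPM (SD, n = 3). COL3A1, the single chain of type III, had 461 ± 53.98 TPM, and the basement membrane chains COL4A2 and COL4A1 had 369 ± 15.8 and 302 ± 15.0 TPM. COL5A1 and COL5A2 of type V had 260 ± 26.1 and 148 ± 15.5 TPM. From COL1A1 down to COL6A3, at 16.5 ± 1.85 TPM, each chain lay above the next in every control library. That order ran from COL5A2 through COL8A1 (85.3 ± 0.736 TPM), COL12A1 (68.8 ± 3.32 TPM) and COL7A1 (30.9 ± 1.95 TPM). COL6A3 is the other usual chain of type VI, and its level per length was far under those of COL6A1 and COL6A2, with a ratio of COL6A3 to COL6A1 of 0.0247 ± 0.00336 (SD, n = 3).

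From COL6A3 to COL18A1 the values of neighbouring chains overlapped, with means of 14.7 TPM for COL13A1, 12.1 for COL10A1, 12.03 for COL15A1 and 10.98 for COL18A1. Between 1 and 10 TPM lay COL17A1, COL16A1, COL9A3, COL27A1, COL21A1 and COL25A1, with means from 6.13 down to 1.42 TPM. COL11A2, COL4A4 and COL14A1 were tested although their means were 0.610, 0.377 and 0.160 TPM. The 18 chains that were not tested never had more than 16 expected counts in a library. COL6A5, COL9A1, COL20A1, COL22A1 and COL23A1 had 0 counts in all 6 libraries. The cartilage chain COL2A1 had 2 counts in control siRNA replicate 3 and 0 elsewhere, and COL11A1 had at most 2.

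**Figure D2:**
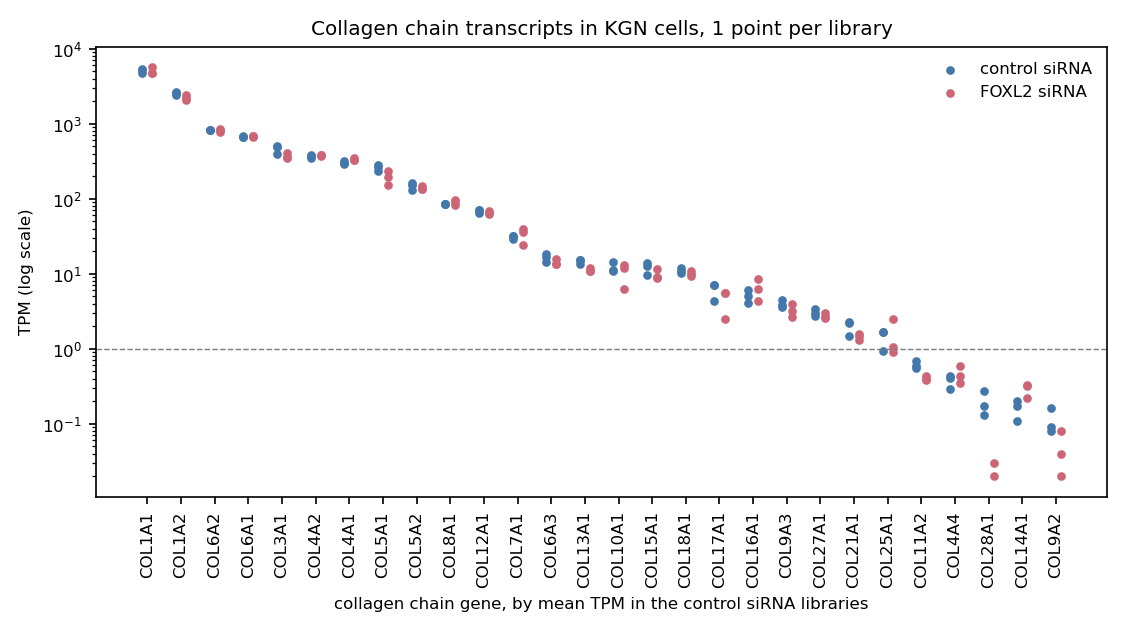
TPM on a log axis for the 28 chains with a control mean of at least 0.1 TPM, ordered by that mean, with 1 point per library (blue, control siRNA; red, FOXL2 siRNA; values of 0 are not drawn). The dashed line is at 1 TPM; control levels span from 5429 TPM for COL1A1 to under 1 TPM, and the colours overlap for most chains.

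The comparison of FOXL2 siRNA with control siRNA asked which chains moved when FOXL2 was depleted. None of the 26 tested chains (0) passed an adjusted p of 0.05 in edgeR's quasi-likelihood test, which called 0.255% of all 15663 genes tested. The smallest adjusted p among the chains was 0.171, for COL13A1. Before adjustment, 6 chains had a p below 0.05, all with lower values after FOXL2 siRNA (COL13A1, COL3A1, COL5A1, COL1A2, COL27A1 and COL6A3), against 6.88% of all genes lower. None had higher values at that level, against 6.62% of all genes. DESeq2 called 1 of the 21 chains to which it gave an adjusted p, COL3A1, as lower, where it called 1.81% of all genes as lower. With RSEM's effective lengths as offsets, DESeq2 again called COL3A1 alone, among 22 chains and 1.80% of all genes called as lower.

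The log2 fold changes of the tested chains had a median of -0.06, against 0.01 over all genes tested, and ran from -0.46 (COL5A1) to 0.44 (COL14A1). They were below 0 in 20 of the 26, against 48.6% of all genes. In edgeR no chain exceeded 0.5 in size, while 1019 of the 15663 genes did. With length offsets in DESeq2, COL14A1 (0.86 ± 0.613 SE) and COL11A2 were beyond 0.5, both without an adjusted p. Relative to the control mean of each chain, 18, 21 and 16 of the 26 were lower in FOXL2 siRNA replicates 1, 2 and 3. In control siRNA replicates 1, 2 and 3, 13, 7 and 13 of the 26 were lower than that mean. The mean was taken from these same control libraries, so their values lie around it by construction. The counts of the 2 conditions are therefore not like for like, and the share of all genes was not calculated. FOXL2 itself was at 26.0, 32.6 and 23.3% of its control mean in FOXL2 siRNA replicates 1, 2 and 3. Control and FOXL2 siRNA values in CPM were fully apart, with FOXL2 siRNA lower, in 4 chains (COL1A2, COL3A1, COL13A1 and COL27A1), against 10.6% of all genes. They were apart in the other direction in 1 chain, COL14A1, against 9.97% of all genes, and that chain had only 10 to 18 counts per library. On the TPM scale COL1A2, COL3A1 and COL27A1 overlapped, whereas COL13A1 and COL14A1 stayed apart.

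**Figure D3:**
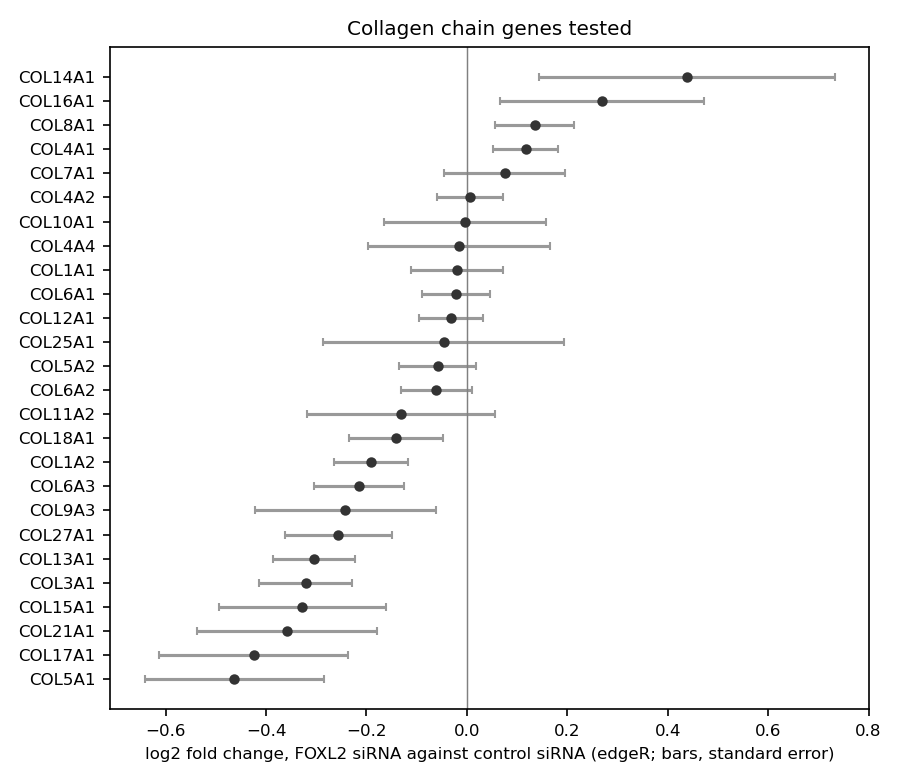
The log2 fold change of each of the 26 tested chains, FOXL2 siRNA against control siRNA (x axis; points, edgeR estimate; bars, standard error), sorted by value. They run from -0.46 for COL5A1 to 0.44 for COL14A1, with 20 below 0.

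All 7 tested fibrillar chains had log2 fold changes below 0, from -0.46 to -0.02 with a median of -0.19, and 4 of them had an unadjusted p below 0.05. Of all genes, 48.6% were below 0 and 6.88% were lower at that p. Being below 0 throughout was not particular to this class. All tested transmembrane (3), type VI (3) and multiplexin (2) chains were below 0 too, with medians of -0.30, -0.06 and -0.23. Of the FACIT chains 3 of 5 were below 0, of the type IV chains 1 of 3, and COL7A1 was above 0. Of COL8A1 and COL10A1, 1 was below 0. COL3A1 (ENSG00000168542, chromosome 2, 188974320 to 189012746, plus strand) encodes the type III chain of pliable tissues. Its TMM-normalized values were 1518, 1537 and 1275 CPM with the control siRNA and 1122, 1072 and 1271 CPM with FOXL2 siRNA. All FOXL2 siRNA values lay under all control values, but replicate 3 of each condition came within a few CPM of the other. On the TPM scale these values were 399 and 404, so that the conditions overlapped. In edgeR the difference was -0.32 ± 0.0917 (SE) on the log2 scale, with adjusted p = 0.198. DESeq2 gave -0.33 ± 0.0952 (SE; adjusted p = 0.0278), and -0.32 ± 0.0932 (SE; adjusted p = 0.0258) with length offsets. With the replicate number as a block, the adjusted p from DESeq2 was 0.0599.

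COL5A1, a chain of the type V collagen that nucleates type I fibrils, had the lowest edgeR estimate of all tested chains, -0.46 ± 0.179 (SE) on the log2 scale with adjusted p = 0.317. It had 1207, 1277 and 1094 CPM with the control siRNA and 1122, 615 and 858 CPM with FOXL2 siRNA. FOXL2 siRNA replicate 1 lay within the control range, and replicate 2, the library that stood apart, was the lowest. The log2 fold change was -0.27 without that library and -0.70 without FOXL2 siRNA replicate 1. COL5A2, its partner chain, had 597 ± 50.04 and 574 ± 33.6 CPM (SD, n = 3 each), which overlapped.

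COL1A2 had 6442, 6608 and 6128 CPM with the control siRNA and 5270, 5424 and 6110 CPM with FOXL2 siRNA. The conditions did not overlap, by a margin of less than 1% between replicate 3 of each. On the TPM scale they did overlap. In edgeR it differed by -0.19 ± 0.0743 (SE) on the log2 scale (adjusted p = 0.324). COL1A1 had 14349, 15082 and 13796 CPM against 13621, 12890 and 16132 CPM, so its highest and its lowest value were both in FOXL2 siRNA libraries. Its log2 fold change was -0.02 (standard error 0.0918), and the sign turned when single libraries were left out.

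COL27A1, a fibrillar chain with a shorter helix, had 11.6, 10.7 and 10.0 CPM with the control siRNA and 8.42, 8.89 and 9.75 CPM with FOXL2 siRNA. The edgeR difference was -0.26 ± 0.107 (SE) on the log2 scale (adjusted p = 0.342), and it lay between -0.16 and -0.11 in the fits that used lengths or TPM. COL11A2 was the remaining tested fibrillar chain, at 1.64 ± 0.139 and 1.49 ± 0.110 CPM (SD, n = 3 each), which overlapped. On the TPM scale it was lower in all FOXL2 siRNA libraries (0.38, 0.40 and 0.44 TPM against 0.56, 0.68 and 0.59 TPM). The log2 estimate was -0.13 in edgeR and -0.59 ± 0.360 (SE) in DESeq2 with length offsets.

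Outside the fibrillar class, COL13A1 had the smallest p of all chains. It encodes a transmembrane collagen of cell adhesion sites. Its values were 18.7, 18.2 and 18.7 CPM with the control siRNA and 15.9, 14.6 and 14.5 CPM with FOXL2 siRNA. The conditions were apart on both the CPM and the TPM scale, and the spread within each was small. This was -0.30 ± 0.0810 (SE) on the log2 scale, with adjusted p = 0.171 in edgeR, and DESeq2 with length offsets gave -0.40 (adjusted p = 0.0635). COL6A3 had 103, 107 and 90.6 CPM against 83.8, 80.1 and 95.4 CPM, which overlapped. Its edgeR difference was -0.21 ± 0.0891 (SE) on the log2 scale (adjusted p = 0.342).

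**Figure D4:**
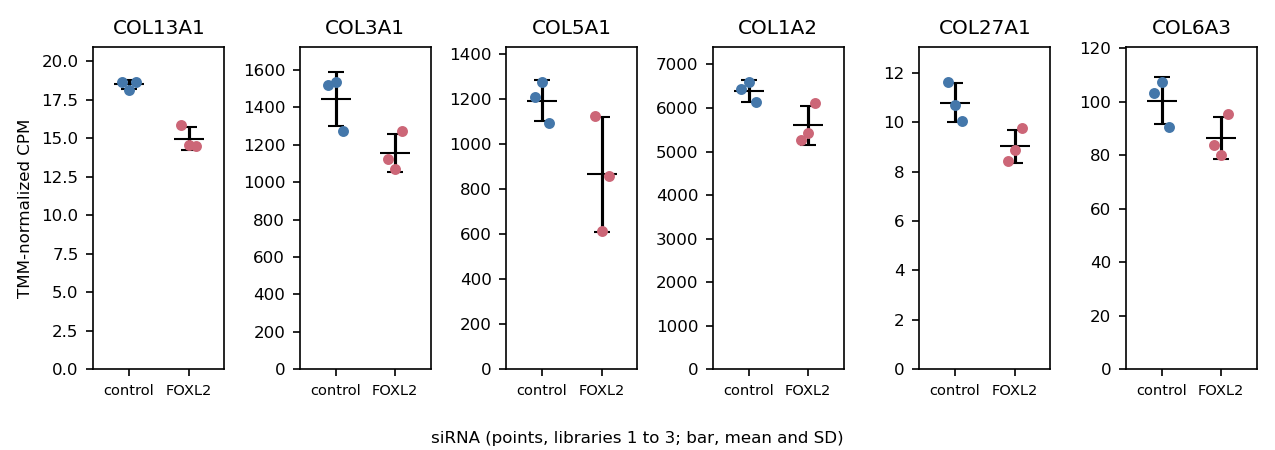
TMM-normalized CPM (y axis from 0) of the 6 chains with the smallest edgeR p, 1 point per library (blue, control siRNA; red, FOXL2 siRNA; bar, mean and SD, n = 3). COL13A1, COL3A1, COL1A2 and COL27A1 do not overlap between conditions, whereas COL5A1 and COL6A3 do, and COL5A1 spreads from 615 to 1122 CPM with FOXL2 siRNA.

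The abundant type VI chains COL6A2 and COL6A1 differed little between conditions. COL6A2 had 1675 ± 26.4 CPM with the control siRNA and 1606 ± 136 CPM with FOXL2 siRNA, and COL6A1 had 1600 ± 69.9 and 1577 ± 101 CPM (SD, n = 3 each). Their log2 fold changes were -0.06 and -0.02 (standard errors 0.0714 and 0.0679), and both overlapped between conditions. Larger estimates came from less abundant chains. The transmembrane chain COL17A1 and the multiplexin COL15A1, the latter a basement membrane zone collagen, had log2 fold changes of -0.42 and -0.33. Their standard errors were 0.188 and 0.166, and the edgeR adjusted p was 0.37 and 0.42. The FACIT chain COL21A1 was at -0.36 (standard error 0.179, edgeR adjusted p = 0.41). Values of COL17A1, COL15A1 and COL21A1 overlapped between conditions. The 6 chains above 0 were COL14A1, COL16A1, COL8A1, COL4A1, COL7A1 and COL4A2. Among the chains that were not tested, COL28A1 had 5, 4 and 6 counts with the control siRNA and 2, 1 and 0 with FOXL2 siRNA, which is at the limit of what these libraries can count.

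The type IV genes lie in pairs that start head to head and are transcribed away from each other. COL4A1 (ENSG00000187498, chromosome 13, 110148963 to 110307233, minus strand, GRCh38) and COL4A2 (ENSG00000134871, 110305812 to 110513209, plus strand) encode the chains found in nearly all basement membranes. The extents given by GENCODE, which take in every transcript, overlap at the starts. In RefSeq on GRCh38.p14, 126 bases lie between their starts, at chr13:110307158-110307283, and the interval is shown because both chains start from its ends. It is given on the plus strand, and capitals mark GGCGGG and CCAAT on either strand.
COL4A1 and COL4A2: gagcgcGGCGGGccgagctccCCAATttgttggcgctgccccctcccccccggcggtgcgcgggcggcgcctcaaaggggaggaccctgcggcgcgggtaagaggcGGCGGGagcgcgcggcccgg
GGCGGG, on either strand, was in 44.7% of 27305 RefSeq promoter windows and CCAAT in 35.7%, so neither word is rare. Of the 32 chain genes with such a window, 21 (65.6%) had GGCGGG and 10 (31.2%) had CCAAT. COL4A1 had 1049, 1138 and 1142 CPM with the control siRNA and 1246, 1137 and 1226 CPM with FOXL2 siRNA. COL4A2 had 1161, 1204 and 1223 CPM against 1244, 1107 and 1250 CPM. Both pairs of ranges overlapped, and the log2 fold changes were 0.12 (standard error 0.0640) and 0.01 (standard error 0.0658). For COL4A1 the adjusted p was 0.458 (edgeR quasi-likelihood test). On the TPM scale COL4A1 was higher in every FOXL2 siRNA library (332, 347 and 333 TPM against 288, 317 and 300 TPM).

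The other pairs encode the chains of specialised basement membranes such as those of the kidney. COL4A4 had 57, 47 and 74 counts with the control siRNA and 62, 56 and 67 with FOXL2 siRNA (log2 fold change -0.02, standard error 0.181), and its sign turned in the fits with length offsets. COL4A3, which starts beside it, had 1, 1 and 3 counts against 12, 3 and 3 and was not tested. COL4A5 and COL4A6 had at most 1 count in any library.

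Chains of the same collagen type, and COL3A1 and COL1A1, whose types assemble in the same fibrils, were also set against each other within each library, as ratios of TPM. The ratio of COL1A1 to COL1A2 was 2.01, 2.06 and 2.02 with the control siRNA and 2.33, 2.13 and 2.33 with FOXL2 siRNA. The control libraries were close together, and every FOXL2 siRNA library was higher. COL4A1 to COL4A2 was 0.819, 0.831 and 0.805 against 0.883, 0.917 and 0.857, also with every FOXL2 siRNA library higher. COL3A1 to COL1A1 was 0.0947, 0.0917 and 0.0828 against 0.0731, 0.0754 and 0.0717, with every FOXL2 siRNA library lower. These 3 ratios did not overlap as ratios of CPM either.

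COL5A1 to COL5A2 was 1.73, 1.76 and 1.77 with the control siRNA and 1.73, 1.14 and 1.31 with FOXL2 siRNA. FOXL2 siRNA replicate 1 was only just below the control values, and the ratio of CPM overlapped. COL6A1 to COL6A2 (0.807 ± 0.0246 and 0.837 ± 0.0325) and COL6A3 to COL6A1 (0.0247 ± 0.00336 and 0.0211 ± 0.00201; SD, n = 3 each) overlapped. In an exact permutation test, two-sided, the 4 ratios without overlap had p = 0.1, the smallest that 3 libraries against 3 allow, and 0.15 after Benjamini-Hochberg adjustment over the 6 ratios. No ratio can reach 0.05 in this design. The ratios reuse chains already described above, such as COL1A2, COL3A1 and COL5A1, so they are no separate results. How often ratios of other gene pairs lay apart was not calculated.

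**Figure D5:**
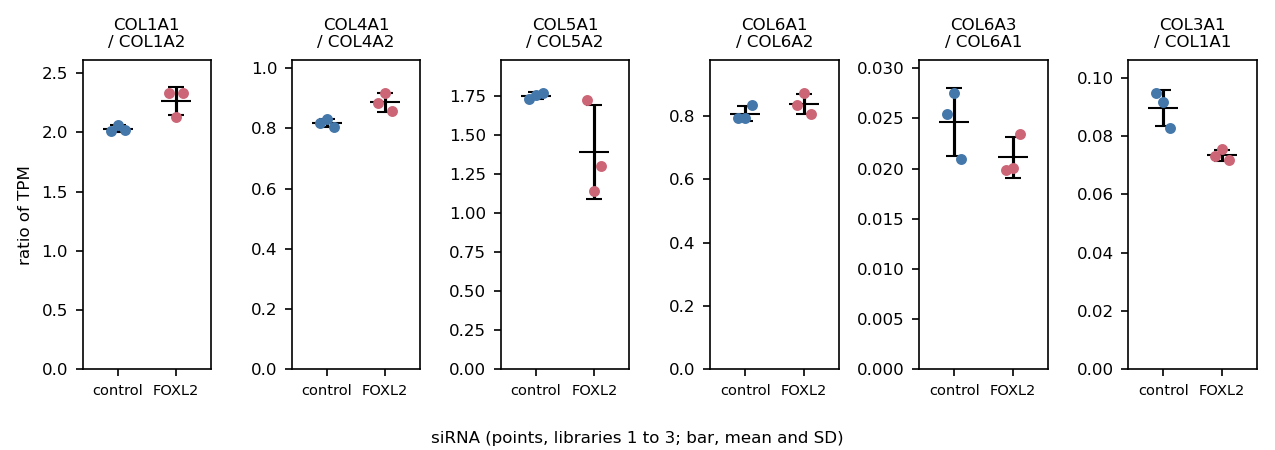
Ratio of TPM (y axis from 0, a separate scale per panel) of 6 pairs of chains, 1 point per library (blue, control siRNA; red, FOXL2 siRNA; bar, mean and SD, n = 3). COL1A1 to COL1A2 and COL4A1 to COL4A2 are higher in every FOXL2 siRNA library, COL3A1 to COL1A1 and COL5A1 to COL5A2 are lower, and the type VI ratios overlap.

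The machinery that makes, folds, secretes and crosslinks collagen was taken as a list of 70 genes, with receptors and fibril-associated proteins. Of these, 65 were tested, 45 with log2 fold changes below 0 (48.6% of all genes were below 0) and 20 above, with a median of -0.05. None (0) was called by edgeR, against 0.255% of all genes. Unadjusted p was below 0.05 for 8 lower and 2 higher genes, against 6.88% and 6.62% of all genes. By role, 9 of 15 genes of chain hydroxylation and glycosylation were below 0, 15 of 22 of the chaperones and secretion genes, 10 of 13 of the processing and crosslinking genes, 6 of 8 receptors and 5 of 7 fibril-associated proteins. In the chaperone and secretion group 5 genes had an unadjusted p below 0.05, in the crosslinking group 3 and among the fibril-associated proteins 2.

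NID2, nidogen 2 of the basement membrane, had 56.6, 61.9 and 52.9 CPM with the control siRNA and 40.0, 45.4 and 48.4 CPM with FOXL2 siRNA, with no overlap. In edgeR this was -0.36 ± 0.0907 (SE) on the log2 scale (adjusted p = 0.160), and DESeq2 called it (adjusted p = 0.0267), though not with the replicate number as a block (adjusted p = 0.0905). MIA3, which loads procollagen into transport carriers, had 65.9, 64.2 and 67.7 CPM against 48.2, 65.3 and 56.3 CPM, which overlapped. The main edgeR estimate was -0.22 (adjusted p = 0.387), and -0.12 (adjusted p = 0.609) without FOXL2 siRNA replicate 1. It was called lower by DESeq2 with length offsets alone among the fits to all 6 libraries (log2 fold change -0.41, adjusted p = 0.00204), and by edgeR without FOXL2 siRNA replicate 2 (-0.34, adjusted p = 0.0407). CREB3L2, a transcription factor of the secretory pathway, had 253, 255 and 266 CPM against 308, 284 and 289 CPM, with no overlap, and was called higher in the same DESeq2 fit (0.21, adjusted p = 0.0464), where 1.06% of all genes were called higher. These calls stand beside 1.81% and 1.80% of all genes called lower in the DESeq2 fits.

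The most abundant genes of the list differed little. SPARC, a collagen-binding matrix protein, had 3671 CPM with the control siRNA and 3687 CPM with FOXL2 siRNA on average. FN1, fibronectin, had 14245, 14488 and 15220 CPM against 14083, 12601 and 13840 CPM, which did not overlap (log2 fold change -0.12, edgeR adjusted p = 0.502). The chaperone CALR, the prolyl isomerase PPIB and the integrin chain ITGB1 had log2 fold changes of -0.10, -0.05 and -0.06. With 1 library left out, CALR ranged from -0.14 to -0.05 (highest without control siRNA replicate 3), ITGB1 from -0.13 without FOXL2 siRNA replicate 2 to -0.01 without replicate 1, and FN1 from -0.15 to -0.07 (highest without FOXL2 siRNA replicate 2). The summed TPM of the 7 fibroblast and stroma markers was 539 to 556 with the control siRNA and 525 to 556 with FOXL2 siRNA, and none of the 7 was called. The 4 endothelial markers were all under 1 TPM. Their sum was 0.63 to 0.72 TPM with the control siRNA and 0.76 to 1.21 TPM with FOXL2 siRNA, and its part in these results was not tested.

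Finally, the transcripts were searched for the spacing of G pairs that the study was concerned with, taken here as 8 GG in a row with 1 to 4 bases between them. In the longest GENCODE v29 transcript, 9 of the 26 tested chain genes (34.6%) held it, against 19.3% of 15530 tested genes with a transcript. None of the untested chains held it, so the share was 20.5% over all 44. The genes compared were not matched for transcript length or base composition, and the part of these in the shares was not tested. The match lay in the coding sequence of COL7A1, COL13A1 and COL17A1, and in an untranslated region of COL1A1, COL5A1, COL6A3, COL15A1, COL18A1 and COL27A1. COL3A1 and COL1A2 had none. When the gaps were allowed to run from 1 to 7 bases, the spacing of the helix repeat, all 44 chain genes matched, against 48.4% of tested genes. The helix repeat itself has 7 bases between pairs, so this match was given in advance and is no separate result. A match describes the letters of a transcript and is no evidence of binding.

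RefSeq promoter windows, from 250 bases before to 50 after the start, were at hand for 32 of the 44 chains, COL1A1, COL1A2 and COL3A1 not among them. A forkhead word (GTAAACA or ATAAACA or GTAAATA or ATAAATA, on either strand) was in 4 of the 32, those of COL9A1, COL13A1, COL17A1 and COL28A1, and in 13.9% of all 27305 windows. A missing word says only that these letters are not in this window.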

How the data were processed

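Gene expression was measured in 6 libraries, grouped by siRNA, with replicate numbers from the labels. Stranded mRNA was sequenced as single reads, which the authors mapped with STAR 2.7.6a, checked them with Picard 2.8.1 and counted them with RSEM 1.3.1. The submitters' processing notes name the mouse build GRCm38, whereas the gene identifiers are human. The deposited tables hold RSEM's expected count (an estimated count, not normalized), and TPM and FPKM scaled by the authors' run of RSEM, with lengths. FPKM was not used. Symbols matched 60401 of 60671 identifiers.

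Expected counts were rounded and filtered with filterByExpr (15663 genes), normalized by TMM and compared with edgeR 4.0.16 in R 4.3.3 (glmQLFit and glmQLFTest, Benjamini-Hochberg over all genes tested, threshold 0.05). The test was tested on simulated data. Its standard errors were calculated as the size of the log2 fold change divided by the square root of the F statistic. Alternatives were DESeq2 1.42.0, limma 3.58.1, other filters, scalings and length offsets, a replicate block and each library left out. Deviations of same-numbered libraries from their group means had correlations of -0.0301, 0.0473 and 0.0478. Those of differently numbered libraries ran from -0.106 to 0.083. The labels do not state whether a number marks a shared day or batch. This check cannot decide it, since the FOXL2 siRNA pools also differed between libraries. The numbers were not treated as pairs in the main test.

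The members, lists and tests were chosen with earlier results of these data known. The genes named by rule were FOXL2, the chains called by edgeR or DESeq2, the 8 most abundant chains, the 6 with the smallest p, the type IV pairs, and the called and the 5 most abundant genes of the pathway list. Other chains were named after their values were seen. Sequences came from GENCODE v29 (GRCh38) and RefSeq (GRCh38.p14), which may not be the authors' annotation. The sequence of 1 further stretch is not reported here.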

Additional observations from a re-analysis of the deposited data

How the results depend on the processing

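The number of collagen chains called was 0 in edgeR and in every edgeR fit that left out 1 library, and 1 (COL3A1) in DESeq2 with or without length offsets. That call was lost with a replicate block in DESeq2 (0 calls), and 0 chains were called with the block in edgeR. Of the 70 pathway genes, 0 were called in the main test, 1 in DESeq2, 3 with length offsets in DESeq2, 1 with the block in DESeq2 (TGM2) and 0 to 1 with 1 library left out. For all genes tested, 40 calls became 353 in DESeq2, 346 in DESeq2 with length offsets, 13 in limma on log2(TPM + 1) or log2(TPM + 0.1), 70 without a filter, 64 with a mean of at least 50 counts, 11 and 189 with the block in edgeR and DESeq2, and 2 to 579 with 1 library left out. The highest count was without FOXL2 siRNA replicate 2 and the lowest without control siRNA replicate 1 or 3. The median log2 fold change of the chains stayed below 0 in every fit and was -0.18 in DESeq2 with length offsets, where 39 chains with any count entered. The G pair spacing was in 9.09% of the 44 chains with gaps of 1 to 3, against 7.95% of all tested genes. With 6 pairs it was in 52.3% of the 44 chains, against 46.1%. Among the 26 tested chains these shares were 15.4% and 61.5%. With gaps of 1 to 7, the spacing of the helix repeat, it was in 100% of chains, against 48.4%. The cause of these differences was not tested.

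Of 397 comparisons of the 21 named tested genes with an alternative, 361 kept the direction and side of the threshold, 3 kept the direction but had no adjusted p (FOXL2 with the block in DESeq2, and COL4A4 in DESeq2 with and without it), 7 passed it and 26 changed sign, all in genes with log2 fold changes between -0.06 and 0.01. Without 1 library COL1A1 ranged from -0.123 to 0.0411, COL6A2 from -0.108 to 0.0029, COL6A1 from -0.0524 to 0.0267, COL4A2 from -0.0274 to 0.0559, COL4A4 from -0.133 to 0.133, SPARC from -0.0338 to 0.0576 and PPIB from -0.0842 to 0.0132. With length offsets, COL6A1 was 0.0131 in DESeq2 and 0.0182 in edgeR, COL4A4 0.273 and 0.252, and SPARC -0.0187 and -0.0137. On log2(TPM + 1) and log2(TPM + 0.1), COL6A1 was 0.0213 and SPARC -0.0164. With the block in DESeq2, COL4A2 was -0.0013 and SPARC -0.0001. The filter on low counts left 18 of the 44 chains untested, 5 of them with 0 counts in all libraries, and 3 libraries against 3 limit what can be called.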
